A study of Mus musculus with 11 samples.

Results

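Transcripts of 6 genes that act in DNA replication and mitosis were followed in peritoneal macrophages after injection of PBS or IL-4 complexes (IL-4c). The genes were taken by name: Top2a, Cdc20, Kif20a, Ccnb2, Birc5 and 2810417H13Rik, the last of which is listed today as Pclaf. They are 6 of the 754 genes whose values were analysed, and all 6 were among the 445 genes that rose above the detection floor in at least 1 mouse and were therefore tested. Each IL-4c-treated mouse analysed had higher values for each of the 6 genes than any PBS-treated mouse, which held for 10.8% of the genes tested. The paper had already named Top2a, Cdc20, Kif20a and Ccnb2 as raised by IL-4 in these data. Their rise here is therefore a description and no separate support. The study had left out 1 IL-4c-treated mouse that resembled the PBS-treated ones. After IL-4c, none of the 6 passed the test between mice with and without RELMα, and 2.70% of the genes tested did.

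Cells that divide copy their DNA in S phase, separate the copies in mitosis, and build much of the machinery for either step only when it is needed. Transcripts of mitotic genes are therefore scarce in resting tissue macrophages and abundant in dividing ones. Resident macrophages of the serous cavities are known to maintain themselves by division in place, and IL-4 delivered as a complex with its antibody is known to make them divide. RELMα, encoded by Retnla, is a small secreted protein made in large amount by macrophages exposed to IL-4.

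Values came from 11 female mice, 6 to 8 weeks old, of the strain labelled C57BI/6, each giving 1 sample of sorted CD11b+F4/80+ peritoneal macrophages. Wild-type mice are written Rα+/+. In RαTd/Td mice both Retnla alleles carry TdTomato in place of part of the coding sequence, a constitutive deletion present in every cell of the animal and not in macrophages alone. PBS or IL-4c was injected intraperitoneally on day 0 and again on day 2, with collection on day 4. Mice 1 and 2 were PBS-treated Rα+/+, mice 3 and 4 PBS-treated RαTd/Td, mice 5, 6 and 7 IL-4c-treated Rα+/+, and mice 9, 10, 11 and 12 IL-4c-treated RαTd/Td. A further IL-4c-treated Rα+/+ mouse, left out by the study, was not analysed here. The paper left it out because its expression values grouped with the PBS-treated mice, and names ineffective delivery of IL-4c as the likely reason. The separation of the treatments, the spread among IL-4c-treated Rα+/+ mice and the genotype differences after IL-4c given below therefore hold without that mouse.

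The assay was Nanostring's Myeloid Innate Immunity v2 panel, in which a barcoded probe binds each transcript and is counted without amplification. Values are normalized counts, that is, counts scaled within each mouse to 4 housekeeping genes. Probes differ in how well they bind, so levels are compared between mice and not between genes. The sum of counts above the floor was 268858 to 574505 per mouse. Low values had been set to a floor of 30. Because the scaling differed between lanes, the lowest measurable value was 48.2, 30, 56.1 and 56.3 normalized counts in mice 1, 2, 3 and 4, and 30 to 36.4 in the IL-4c-treated mice. Retnla was at the floor in all RαTd/Td mice, as their genotype labels say. The 8 large peritoneal macrophage markers measured were above the floor in all mice, while all 5 eosinophil and both NK cell markers stayed at the floor in every mouse. In Rα+/+ mice the means after PBS and after IL-4c were 6296 and 8924 for Adgre1, 9897 and 9785 for Itgam, and 608 and 599 for Gata6. Timd4 went from 3268 to 1147, Cd14 from 1448 to 337, Selp from 2014 to 995, Mertk from 481 to 229 and Csf1r from 3150 to 1583. With the deposited scaling, these last markers were lower after IL-4c in RαTd/Td mice too. Ms4a1, a B cell marker, was at 105 to 242 normalized counts in the PBS-treated mice and at the floor after IL-4c except in mouse 12, at 63.1. Neutrophil or monocyte markers moved with treatment as well: 5 of the 9 measured were at the floor in all mice, and the others summed to 385 to 630 normalized counts after PBS and to 0 to 151 after IL-4c. The part of such cells in the results was not tested. The small peritoneal macrophage markers, of which Itgax was at the floor in all mice and the other 5, led by Cd74, H2-Aa and H2-Ab1, above it in all, summed to 6851 to 8335 in PBS-treated Rα+/+, 22288 to 29953 in PBS-treated RαTd/Td, 4139 to 7025 in IL-4c-treated Rα+/+ and 6600 to 16935 normalized counts in IL-4c-treated RαTd/Td mice. The sum rests mainly on Cd74, H2-Aa and H2-Ab1, transcripts that the paper reports as raised in RαTd/Td macrophages. Ccr2 and Irf4 added little to it. After PBS, Ccr2 was at 175 to 353 in Rα+/+ and 249 to 259 in RαTd/Td mice, and Irf4 at 100 to 143 and 171 to 174. The sum alone does not give the share of these cells. In bulk samples of this kind, fewer cells in division cannot be told apart from less of the transcript in each of them.

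The promoters of these genes are shown because the genes moved together across the mice. Many genes of the late cell cycle carry CCAAT boxes, bound by the factor NF-Y, and close to the start a cell cycle genes homology region, TTTGAA or the variant TTCGAA, while genes of the S phase often carry E2F sites such as TTTCCCGC. The RefSeq promoter table of build GRCm38.p6 gave a window of 300 bases, 250 before the start and 50 from it on, for 5 of the 6 genes; Kif20a is named only. Capitals mark each of these 4 motifs in either orientation. Sequences run 5′ to 3′ along the gene, from the minus strand for Top2a (chr11:99024140-99024439), Cdc20 (chr4:118437294-118437593) and Ccnb2 (chr9:70421505-70421804) and from the plus strand for 2810417H13Rik (chr9:65890073-65890372).
Top2a: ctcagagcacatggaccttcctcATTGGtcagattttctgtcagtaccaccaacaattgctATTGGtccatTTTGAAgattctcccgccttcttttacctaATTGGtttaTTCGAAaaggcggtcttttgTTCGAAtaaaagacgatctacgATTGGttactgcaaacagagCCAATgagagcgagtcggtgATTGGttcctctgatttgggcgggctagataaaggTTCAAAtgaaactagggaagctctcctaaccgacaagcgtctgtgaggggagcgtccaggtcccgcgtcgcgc
Cdc20: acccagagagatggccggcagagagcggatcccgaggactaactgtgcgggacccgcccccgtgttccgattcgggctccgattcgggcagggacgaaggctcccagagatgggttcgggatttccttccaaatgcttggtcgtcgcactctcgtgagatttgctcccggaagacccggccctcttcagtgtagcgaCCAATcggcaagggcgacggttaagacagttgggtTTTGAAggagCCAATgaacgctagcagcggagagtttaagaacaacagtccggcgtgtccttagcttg
Ccnb2: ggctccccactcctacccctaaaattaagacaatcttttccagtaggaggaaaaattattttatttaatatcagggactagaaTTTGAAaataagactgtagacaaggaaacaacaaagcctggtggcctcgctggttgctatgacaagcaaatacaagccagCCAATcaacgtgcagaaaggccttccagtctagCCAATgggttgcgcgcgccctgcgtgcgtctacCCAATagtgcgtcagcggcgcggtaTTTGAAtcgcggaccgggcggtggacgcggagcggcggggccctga
2810417H13Rik: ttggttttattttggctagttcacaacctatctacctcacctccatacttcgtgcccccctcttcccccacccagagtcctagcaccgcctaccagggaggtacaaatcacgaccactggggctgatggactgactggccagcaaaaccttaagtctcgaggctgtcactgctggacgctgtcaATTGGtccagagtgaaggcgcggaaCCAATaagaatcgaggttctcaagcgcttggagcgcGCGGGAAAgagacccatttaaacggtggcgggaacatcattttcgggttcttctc

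The Top2a window held 6 CCAAT boxes, 2 matches to TTTGAA and 2 to TTCGAA. In the Cdc20 window there were 2 CCAAT boxes with a TTTGAA between them, beginning 18 bases before the start. Ccnb2 had 3 CCAAT boxes and 2 matches to TTTGAA, while 2810417H13Rik had 2 CCAAT boxes and 1 match to TTTCCCGC that began 5 bases before the start. The Birc5 window (chr11:117848987-117849286, plus strand) held none of these letters. At least 2 CCAAT boxes were present in 4 of the 5 windows and in 11.7% of all 32851 promoters of the table. The combination of at least 2 CCAAT boxes with TTTGAA or TTCGAA was present in 3 of the 5 and in 2.31% of all promoters. TTTGAA alone was found in 17.9%, TTCGAA in 1.56% and TTTCCCGC in 1.07% of all promoters. The E2F variants TTTCGCGC and TTTGGCGC, present in 0.323% and 0.514% of all promoters, were in none of the 5. Half-sites TTC and GAA spaced 4 bases apart, the arrangement that STAT6 prefers, were found in the Top2a window, where they overlap a match to TTTGAA, and in 6.95% of all promoters. A match is a match of letters, and no binding was measured.

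Top2a encodes DNA topoisomerase IIα, which untangles the copied chromosomes before they separate. It was the only one of the 6 with a measured level in every mouse, although that of mouse 3, from 30 counts, was also the lowest value measurable there. Values were 78.8 and 75.7 normalized counts in PBS-treated Rα+/+ mice and 56.1 and 73.2 in PBS-treated RαTd/Td mice. After IL-4c they were 686, 653 and 657 in Rα+/+ mice and 818, 593, 540 and 534 in RαTd/Td mice. The ranges after PBS and after IL-4c were far apart in either genotype, whereas those of the genotypes overlapped after IL-4c, with 1 RαTd/Td mouse above and 3 below all Rα+/+ mice. Top2a rose 8.51-fold in Rα+/+ mice (log2 fold change 3.09 ± 0.19 SE, limma adjusted p = 1.35e-06) and 9.41-fold in RαTd/Td mice (3.23 ± 0.18 SE, adjusted p = 1.09e-06).

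Ccnb2 encodes cyclin B2, a partner of the mitotic kinase Cdk1. Without IL-4c, no mouse had a value above the floor. IL-4c-treated mice had values of 409, 366 and 316 normalized counts (Rα+/+) and 404, 305, 335 and 358 (RαTd/Td), so that the genotypes overlapped over most of their range. Against a group at the floor only a lower limit can be given, here the geometric mean after IL-4c over that of the lowest values measurable in the PBS-treated mice. On that basis Ccnb2 was at least 9.50-fold higher in Rα+/+ mice and at least 6.20-fold higher in RαTd/Td mice.

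Cdc20 encodes the activator that lets the anaphase-promoting complex degrade cyclin B and start the separation of chromosomes. It too stayed at the floor in the 4 PBS-treated mice. With IL-4c it reached 168, 161 and 162 normalized counts in Rα+/+ and 191, 150, 148 and 133 in RαTd/Td mice. The 3 Rα+/+ values lay within a narrow band, with the RαTd/Td values on either side of it. The rise was at least 4.31-fold in Rα+/+ and at least 2.74-fold in RαTd/Td mice.

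Birc5 encodes survivin, a subunit of the chromosomal passenger complex that also belongs to the inhibitor of apoptosis family, and Kif20a encodes a mitotic kinesin that carries this complex to the spindle midzone. Both were at the floor in every PBS-treated mouse. Birc5 was at 183, 181 and 153 normalized counts in IL-4c-treated Rα+/+ mice and at 166, 152, 139 and 135 in IL-4c-treated RαTd/Td mice. Kif20a was at 252, 240 and 174 in the former and at 231, 165, 180 and 188 in the latter. Genotypes overlapped for either gene, through the lowest Rα+/+ mouse, mouse 7, and the highest RαTd/Td mouse, mouse 9. Birc5 was at least 4.52-fold higher after IL-4c in Rα+/+ and at least 2.63-fold higher in RαTd/Td mice. For Kif20a these limits were 5.76-fold and 3.38-fold.

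2810417H13Rik encodes the PCNA clamp-associated factor, which binds the sliding clamp of the replication fork and is thus the member of the group tied most closely to DNA synthesis. It was at the floor in mice 1 and 4 and at 47.2 and 61.7 normalized counts in mice 2 and 3, whose lowest measurable values were 30 and 56.1. After IL-4c it was at 313, 269 and 270 in Rα+/+ and at 320, 228, 198 and 266 in RαTd/Td mice. Every IL-4c-treated mouse was above every PBS-treated one, and the genotypes overlapped. With the limit in place of the value at the floor, the rise was at least 5.94-fold in Rα+/+ and at least 4.23-fold in RαTd/Td mice.

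**Figure D1:**
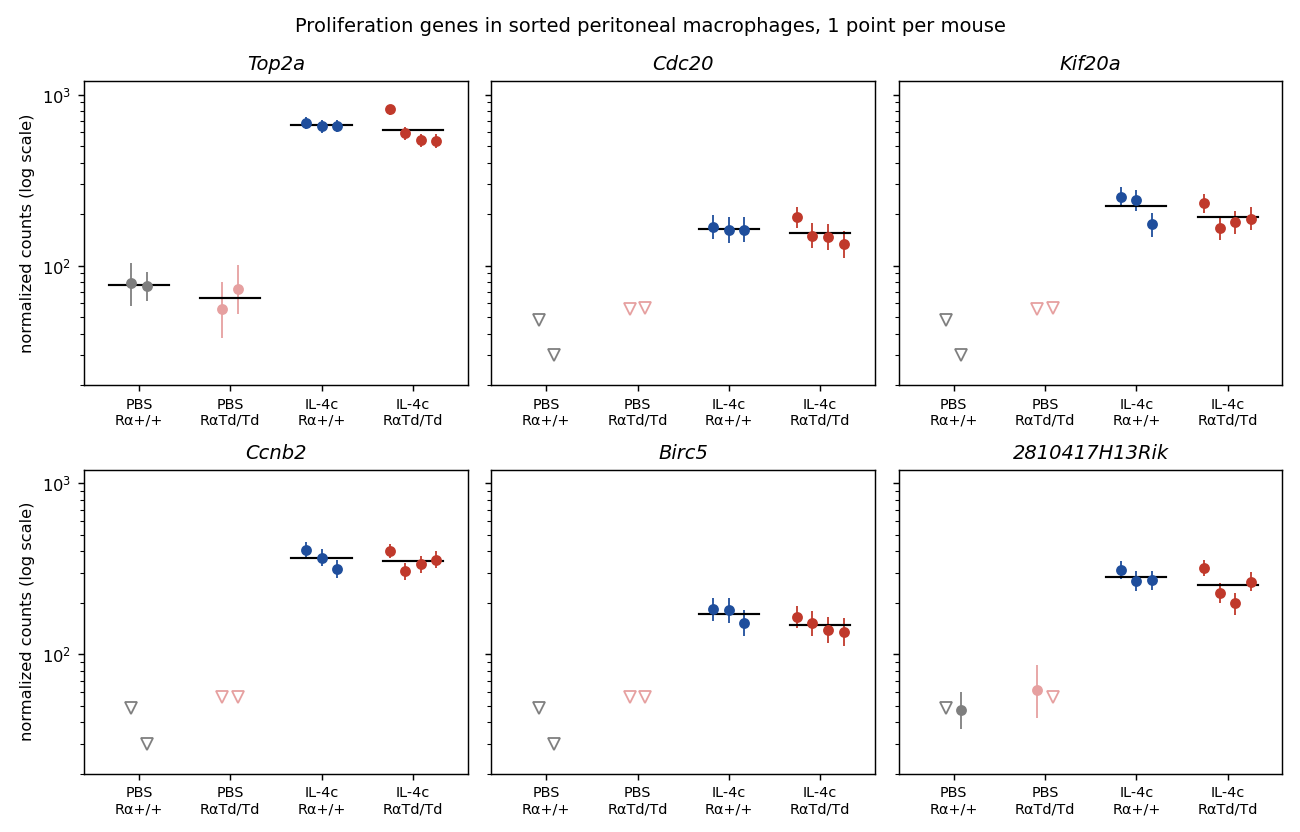
Normalized counts of the 6 genes on a logarithmic axis, 1 point per mouse, in the 4 groups. Filled points are measured values with the 95% Poisson interval of their counts, which covers counting error only, open triangles are the lowest value measurable in a mouse at the floor, and black lines are group means where every mouse was measured. For Top2a the PBS-treated mice lie between 56.1 and 78.8 and the IL-4c-treated mice between 534 and 818.

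A gene was called where limma, fitted to log2 values after adding 1, gave an adjusted p of at most 0.05. All 6 genes were called as higher after IL-4c in Rα+/+ mice, where 13.9% of the genes tested were, and all 6 in RαTd/Td mice, where 15.3% were. These shares rest on the scaling: with lanes scaled to the positive control probes instead of the housekeeping genes they were 59.8% and 72.6%, with medians over all genes of 1.09 and 1.27 on the log2 scale, and with lanes scaled to their total count 7.64% and 14.4%. All 6 genes were called under each. Top2a, Cdc20, Kif20a and Ccnb2 were known from the paper to rise in these data, so for them these shares are no independent test. In the fit as deposited the log2 fold changes ran from 2.41 for Cdc20 to 3.55 for Ccnb2 in Rα+/+ mice, with a median of 2.85, while the median of all genes tested was -0.18. In RαTd/Td mice they ran from 2.26 for Birc5 to 3.50 for Ccnb2, with a median of 2.56, and the median of all genes was -0.23. The largest adjusted p among the 6 was that of 2810417H13Rik, 8.66e-05 in Rα+/+ and 0.000145 in RαTd/Td mice, and it also had the largest standard error, 0.31 and 0.29. Fitted folds of genes at the floor depend on the floor, and the lack of spread among values at the floor makes their standard errors smaller than those of measured values would be.

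They were among the 48 genes for which the IL-4c-treated mice lay wholly above the PBS-treated ones. Cdc20, Kif20a, Ccnb2 and Birc5 belonged to the 15 genes (3.37%) that were at the floor in every PBS-treated mouse and above it in every IL-4c-treated mouse. P-values throughout set a difference between groups against the spread between mice within the 4 groups, and 2 mice made up each PBS-treated group. The geometric mean of the positive control probes, which bind targets added in known amounts, also moved with treatment, from 853 to 1021 counts after PBS to 301 to 623 after IL-4c. The measured folds of Top2a and the lower limits of the other 5 genes were 2.63 to 9.54 as deposited and 7.49 to 27.2 when the lanes were scaled to these controls, a scaling under which most genes were higher after IL-4c. Under the total count the limits in Rα+/+ mice were lower than those given above, 6.91 for Ccnb2, 4.19 for Kif20a, 3.29 for Birc5 and 3.14 for Cdc20, and Top2a rose 6.26-fold.

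**Figure D2:**
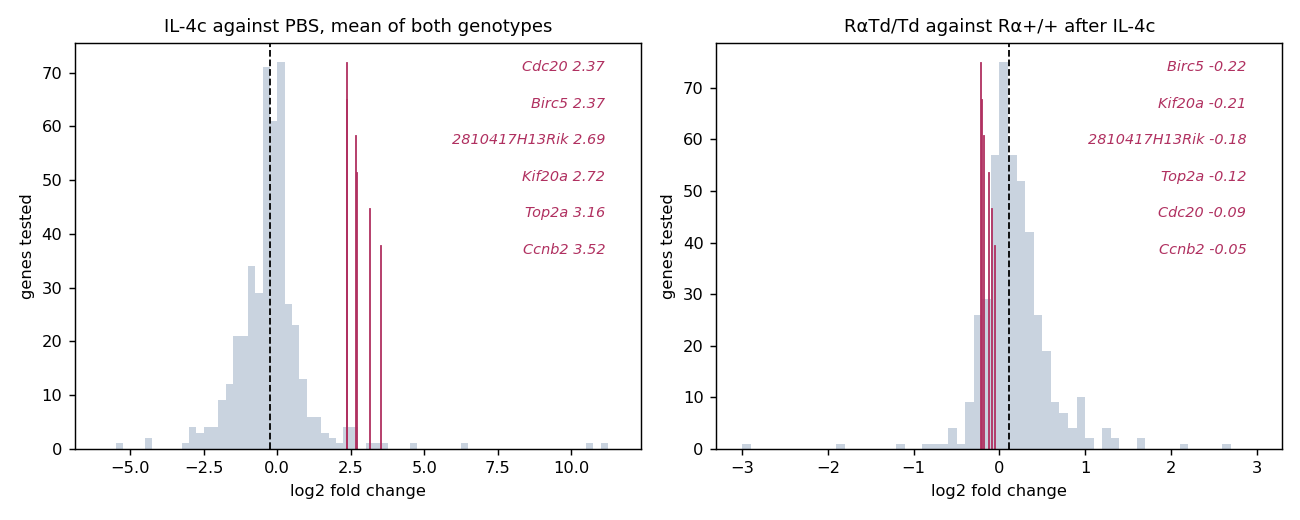
Histograms of the log2 fold change of the 445 genes tested, left for IL-4c against PBS as the mean of both genotypes and right for RαTd/Td against Rα+/+ mice after IL-4c, with the 6 genes as red lines, their values written beside them, and the median of all genes dashed. In the right panel 1 gene beyond the axis, Retnla, is counted in the outermost bar. On the left the 6 genes lie between 2.37 and 3.52, fitted values that for all but Top2a depend on the floor, and on the right between -0.22 and -0.05.

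The study asked whether RELMα limits the response of peritoneal macrophages to IL-4. After IL-4c, the paper reports more peritoneal macrophages, large and small, positive for the proliferation marker Ki67 in RαTd/Td than in Rα+/+ mice. That is protein stained in single cells by flow cytometry, and not transcripts of bulk samples. Here the 6 genes were compared between IL-4c-treated RαTd/Td and Rα+/+ mice. None of the 6 passed the test, where 12 genes (2.70%) did, and 97 of the 445 genes had an unadjusted p of 0.05 or less. All 6 differences were below 0, that is, lower in RαTd/Td mice, which was the case for 25.6% of all genes. The Rα+/+ group lacks the mouse that the study left out, and the differences with that mouse included were not tested. The 6 genes varied in part together over the same mice, so their shared sign does not amount to 6 separate observations. The difference was -0.12 on the log2 scale for Top2a (95% interval -0.48 to 0.24), -0.09 for Cdc20 (-0.36 to 0.18) and -0.05 for Ccnb2 (-0.33 to 0.22). For Kif20a it was -0.21 (-0.55 to 0.13), for Birc5 -0.22 (-0.45 to 0.02) and for 2810417H13Rik -0.18 (-0.77 to 0.40). Adjusted p-values were 0.237 for Birc5 and 0.463 to 0.83 for the others, and Birc5 alone had an unadjusted p near the threshold, 0.0640. Expressed as a change, the intervals ran at their lowest to a fall of 41.3% and at their highest to a rise of 31.8%, both for 2810417H13Rik. For Birc5 the interval ended at a rise of 1.08%. The fit shares 1 spread per gene over the 4 groups. For the 4 genes at the floor after PBS, the lack of spread there makes these intervals narrower and the p-values smaller. The intervals also hold the deposited scaling fixed. Under the total count Birc5 was higher in RαTd/Td mice by 0.031 on the log2 scale, above the interval's upper end of 0.015. With 3 and 4 mice, the fit does not set differences within these intervals apart.

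The sign of these differences rests on how the mice were scaled. Scaled to each lane's total count, all 6 were higher in RαTd/Td mice, by 0.03 for Birc5 to 0.20 for Ccnb2 on the log2 scale, with none called, and the median of all genes moved from 0.12 to 0.37. Retnla itself made up 20.7% to 25.7% of the counts above the floor in IL-4c-treated Rα+/+ mice and none in RαTd/Td mice. With Retnla left out of the total, all 6 were again lower, with a median of -0.29 against -0.02 for all genes. Under the positive controls the medians were -0.58 and -0.31. The geometric mean of these controls itself differed between the genotypes, at 301 to 441 counts in IL-4c-treated Rα+/+ and 507 to 623 in IL-4c-treated RαTd/Td mice. Relative to the median gene, all 6 were lower in RαTd/Td mice, a place that scaling of whole lanes can hardly change and that also held with each IL-4c-treated mouse left out in turn. Here too the 6 genes are not separate observations. In none of the 30 alternative settings was any of the 6 called.

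**Figure D3:**
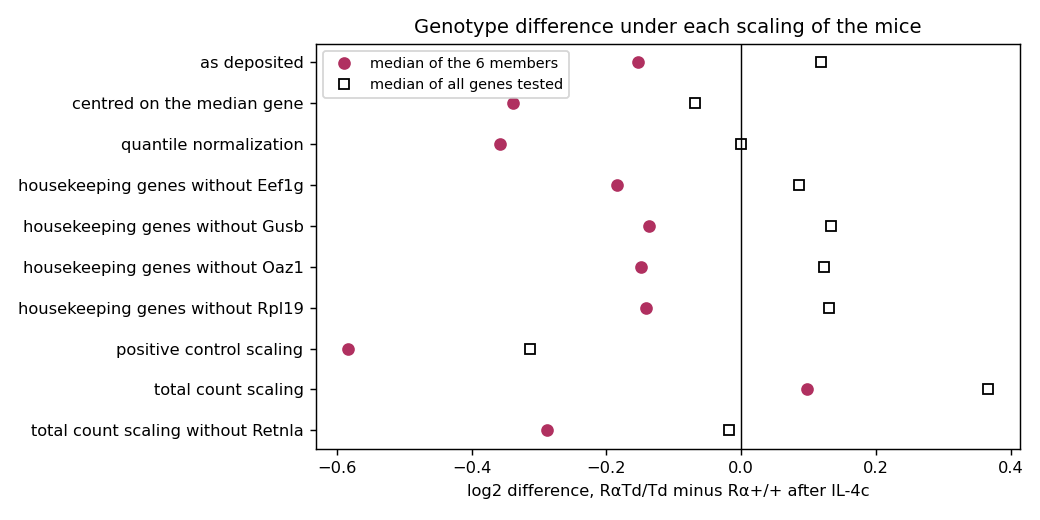
Median log2 difference between IL-4c-treated RαTd/Td and Rα+/+ mice under 10 ways of scaling the mice, red circles for the 6 proliferation genes and open squares for all genes tested. Scaling a lane moves its genes together, so the distance between the medians hardly changes by construction, and only their place relative to 0 is informative. The median of the 6 genes is above 0 only under scaling to the total count with Retnla included.

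The 6 genes placed the IL-4c-treated mice in a partly similar order. All values of a mouse share 1 scaling factor, which moves them together. Mouse 9, an RαTd/Td mouse, had the highest value of all 7 mice for Top2a, Cdc20 and 2810417H13Rik, and mouse 5, an Rα+/+ mouse, for Kif20a, Ccnb2 and Birc5. Both were among the 3 highest mice for all 6 genes. Mice 10 and 11 were among the 3 lowest for all 6. Other mice changed place: mouse 7 had rank 3 for Top2a, Cdc20 and 2810417H13Rik but rank 6 for Kif20a and Ccnb2. Mouse 12 was last for Top2a, Cdc20 and Birc5 but had rank 4 for Kif20a and Ccnb2. As a percentage of the mean of the IL-4c-treated Rα+/+ mice, the 6 genes lay at 96.1% to 123% in mouse 9, 74.5% to 91.4% in mouse 10, 69.8% to 92.2% in mouse 11 and 78.6% to 98.5% in mouse 12. The Rα+/+ mice spanned 78.4% to 113%. Mouse 9 also had the lowest summed level of the small peritoneal macrophage markers among the IL-4c-treated RαTd/Td mice, 6600 normalized counts, against 11400 in mouse 10, 12191 in mouse 11 and 16935 in mouse 12. Cd74, H2-Aa and H2-Ab1 led this sum as well. The part of small peritoneal macrophages in the values was not tested. Without mouse 9, the differences between genotypes were -0.26 for Top2a, -0.19 for Cdc20, -0.30 for Kif20a, -0.12 for Ccnb2, -0.27 for Birc5 and -0.30 for 2810417H13Rik, and none was called, with adjusted p-values of 0.139 to 0.543, while the number of all genes called went from 12 to 27.

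**Figure D4:**
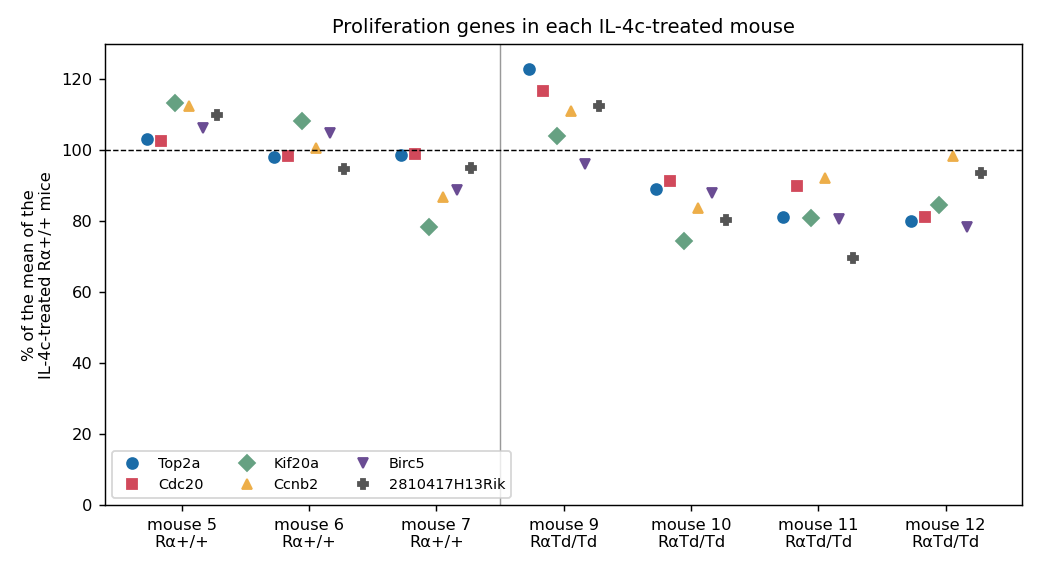
Value of each of the 6 genes in each IL-4c-treated mouse as a percentage of the mean of the 3 IL-4c-treated Rα+/+ mice, which is the dashed line, with 1 marker shape per gene and a vertical line between the genotypes. Mouse 9 reaches 123% for Top2a, while mice 10, 11 and 12 lie below 100% for all 6 genes.

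The spread between mice is given as a description, with no test of it. The coefficient of variation of Top2a was 2.72% in IL-4c-treated Rα+/+ mice, where counting error alone gives 4.2%, and 21.5% in IL-4c-treated RαTd/Td mice, where counting error gives 4.09%. Without mouse 9 it was 5.89% in the latter. Cdc20 went the same way, with 2.28% in Rα+/+ mice and 16.1% in RαTd/Td mice, or 6.34% without mouse 9. For Birc5 the spread was 9.69% and 9.28%, close to the counting error of 8.25% and 8.41%. Kif20a and Ccnb2 varied by 18.9% and 12.8% in Rα+/+ mice and by 14.8% and 11.9% in RαTd/Td mice, and 2810417H13Rik by 8.69% and 20.7%. Among the 7 mice the ratio of Cdc20 to Top2a was the steadiest, from 0.234 to 0.273, with an SD of 0.07 on the log2 scale. The largest such SD was 0.20, for Kif20a.

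After PBS, measured values in both genotypes were available only for Top2a and 2810417H13Rik. Neither was called, where 9.66% of all genes were. Top2a differed by -0.27 on the log2 scale (95% interval -0.73 to 0.20, adjusted p = 0.494). For 2810417H13Rik the difference was 0.19 (-0.57 to 0.95, adjusted p = 0.832), with 1 mouse of each genotype at the floor. In these, mice 1 and 4, nothing below 48.2 and 56.3 normalized counts could be measured, so the value of 0.19 depends on the floor. The difference between the genotypes in their response to IL-4c was likewise called for none of the 6, against 2.02% of all genes. It was 0.15 for Top2a (-0.44 to 0.73, adjusted p = 0.791). For the 4 genes at the floor after PBS this term adds nothing to the comparison after IL-4c.

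Of a list of 77 further cell cycle genes, 5 were measured. None of the 5 was called between genotypes after IL-4c, where 2.70% of all genes were. Against PBS, 3 of the 5 were called higher in Rα+/+ mice and 4 in RαTd/Td mice, where 13.9% and 15.3% of all genes were. Mcm5, a subunit of the helicase that opens DNA for replication, was at 84.5 to 118 normalized counts in 3 PBS-treated mice, at 310 in the other, mouse 2, and at 393 to 592 after IL-4c. It rose by 1.47 ± 0.40 (SE) on the log2 scale in Rα+/+ (adjusted p = 0.0138) and by 2.23 ± 0.38 in RαTd/Td mice (adjusted p = 0.00107). Ttk, a kinase of the spindle checkpoint, was at the floor without IL-4c and at 59.3 to 93.3 after IL-4c, and it was called in both genotypes, although the lowest of these values is little above the 56.3 that could be measured in mouse 4. Tubb5, a β-tubulin, rose less, by 0.53 and 0.71 on the log2 scale (0.07 and not called in Rα+/+ mice under the total count, where Mcm5 was not called either), from 815 to 973 after PBS to 1165 to 1611 normalized counts after IL-4c. Ndc80, a subunit of the kinetochore, had no value above the floor without IL-4c and was at 64.7 normalized counts or below after IL-4c. That is close to what the PBS-treated mice could show. Its call in RαTd/Td mice therefore depends on the floor, and no change can be given. Cdkn1a, which encodes the cell cycle inhibitor p21, was at 576 to 924 normalized counts over all mice. It passed the test in neither genotype, with log2 differences of -0.01 and -0.34. Under the positive controls it was called higher in both, with 1.27 and 1.17. Under the total count it was called lower in Rα+/+ mice, with -0.47, and not called in RαTd/Td mice, with -0.33.

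Of 7 further genes of DNA repair, chromatin, tubulin or growth arrest that the panel holds, 6 could be tested. Of these, 3 were called higher in each genotype, where 13.9% of all genes were in Rα+/+ and 15.3% in RαTd/Td mice. In Rα+/+ mice 2 were called lower and in RαTd/Td mice 1, where 32.4% and 36.6% of all genes were. The histone genes Hist1h1c and Hist2h2aa1 rose by 1.89 and 1.68 on the log2 scale in Rα+/+ and by 1.49 and 1.13 in RαTd/Td mice. Mouse 9 had the highest value of all mice for either histone gene as well, 1801 and 8284 normalized counts. Btg2, an antiproliferative gene, fell by 0.76 in Rα+/+ and by 1.78 in RαTd/Td mice on that scale, and Tuba1a, an α-tubulin, fell by 0.95 in Rα+/+ mice. Under the positive controls neither was called lower, with 0.52 and -0.27 for Btg2 and 0.32 for Tuba1a in Rα+/+ mice.

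**Figure D5:**
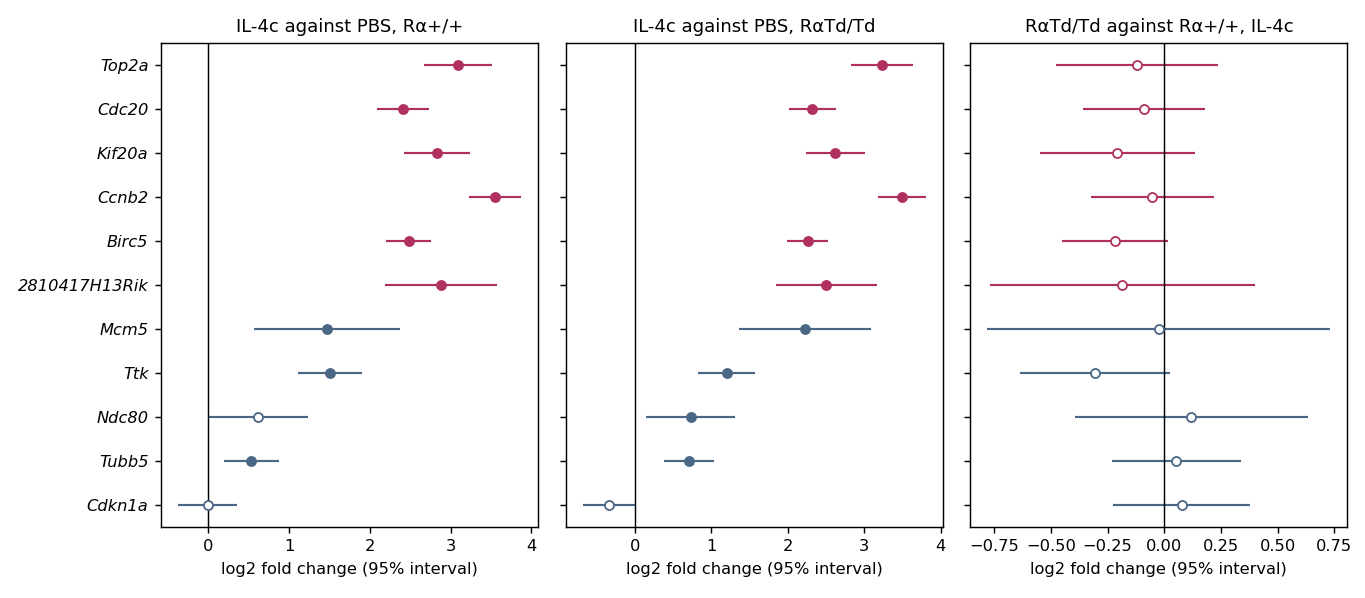
Log2 fold change with 95% interval for the 6 proliferation genes in red and for the 5 other cell cycle genes measured in blue, for IL-4c against PBS in Rα+/+ mice, the same in RαTd/Td mice, and RαTd/Td against Rα+/+ mice after IL-4c, each panel with an axis of its own. Filled points have an adjusted p of 0.05 or less, and for genes at the floor after PBS the first 2 panels depend on the floor. In the last panel the intervals of these genes are narrowed by the lack of spread at the floor. All red points are filled in the first 2 panels and open in the last, where every red interval crosses 0.

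By their profile over the 11 mice the genes stood close to each other. Each gene's log2 values were centred on their mean, and likeness to Top2a was measured as the root mean square difference from it. The 5 nearest of the 444 other genes tested were Ccnb2 (0.25), Kif20a (0.28), Cdc20 (0.40), Birc5 (0.42) and 2810417H13Rik (0.44), where the median over all genes was 1.66. Nearest to the mean profile of the 5 genes other than Top2a were Top2a itself (0.27), Il6 (0.38), C3 (0.43), Hist1h1c (0.54) and Ear3 (0.56), with a median of 1.46. Il6, which encodes the cytokine IL-6, was at the floor after PBS and at 81.5 to 217 normalized counts after IL-4c, and C3, the third complement component, went from 474 to 980 after PBS to 3631 to 6474 after IL-4c. Hist1h1c encodes a linker histone and Ear3 a ribonuclease of the eosinophil-associated family. For the 5 genes other than Top2a the distances depend on the floor, and all follow mainly the difference between treatments, which the mice share.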

How the data were processed

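Sorted macrophages of 11 mice were lysed and assayed on Nanostring's Myeloid Innate Immunity v2 panel. With the manufacturer's Advanced Analysis software, the authors scaled counts to 4 housekeeping genes, and the deposited signal is linear, in normalized counts. Within a mouse every gene had been multiplied by 1 factor and low values set to 30, while control probes were left as whole counts. Dividing by the factor gave whole counts (within 0.1) and thus the depth and the limits of detection. Groups came from the labels, and their mice share no numbers. The 445 genes with a mean above 30 were fitted as log2(value + 1) by limma 3.58.1 (R 4.3.3) in a model of 4 group means over all 11 mice, and p-values were adjusted over the 445 genes by the Benjamini-Hochberg method. Genes were called at 0.05 or less. The fit was tested on simulated data. The 6 genes and all lists were chosen with earlier results of these data known, and the list of 7 further genes after the gene names of the panel were read. Named are the 6 genes, the 5 nearest to Top2a and to the mean of the others, and called members of the lists, up to 5 per list and comparison; uncalled members of the cell cycle list, and the sample values and markers given beside a result, were added after their values were seen. Markers of large and small peritoneal macrophages, B cells, T cells (none measured here), neutrophils or monocytes, eosinophils, mast cells, dendritic cells and NK cells were checked. Alternatives changed the filter, the value added, the scaling, the floor, the groups fitted, the moderation and the test (the methods' t-test), and left out each mouse. Some of the genes measured are not reported here. Coordinates and promoters come from RefSeq, GRCm38.p6.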

Additional observations from a re-analysis of the deposited data

How the results depend on the processing

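No paired analysis was possible because the mouse numbers are unique to each group. A count model planned as an alternative was not run, since the table holds normalized values with a floor. Scalings to the positive controls or the total count with a single floor, and the total without Retnla, were chosen after seeing the data. Under every alternative run, the 6 proliferation genes kept their calls after IL-4c in each genotype and in the mean of both, and none of them was called between genotypes, after PBS or in the difference of responses. With IL-4c in Rα+/+ mice, 206 genes were called as deposited and 313 under the total count, and leaving out 1 mouse gave 147 to 227. In RαTd/Td mice, leaving out 1 mouse gave 162 to 243 called genes against 231.

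For RαTd/Td against Rα+/+ mice after IL-4c, 12 genes were called as deposited, 7 with a mean above 100, 6 and 4 under the positive controls without and with a single floor, 150 and 152 likewise under the total count, 5 without Retnla in the total, 4 with a single floor, 2 with only both groups compared, and 2 and 73 by the methods' t-test with and without adjustment; leaving out 1 mouse gave 5 to 27. After PBS the count was 43 as deposited, 26 after centring, 23 after quantile normalization, 18 and 2 under the positive controls, 14 and 17 under the total count, 14 without Retnla in it, 27 without Eef1g and 19 without Gusb among the housekeeping genes, 3 with only both groups compared and 2 by the adjusted t-test; leaving out 1 mouse gave 3 to 73. For the difference of responses it was 9 as deposited, 4 with a mean above 100, 18 after quantile normalization, 3 under the positive controls with a single floor, 28 and 54 under the total count, 5 without Retnla in it and 16 without Rpl19; leaving out 1 mouse gave 3 to 30.

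The sign of a single gene turned in these cases, none of them called. Under the total count, with or without a single floor, the log2 difference between genotypes after IL-4c was 0.13 for Top2a, 0.16 for Cdc20, 0.043 for Kif20a, 0.20 for Ccnb2, 0.031 for Birc5 and 0.066 for 2810417H13Rik. For Ccnb2 it was 0.036 without mouse 5 and 0.012 without mouse 10, and over the mice left out in turn it ran from -0.15 to 0.036. For 2810417H13Rik after PBS it was -0.016 after quantile normalization, -0.46 under the positive controls, -0.017 under the total count, -0.030 without Retnla in it, -0.13 without mouse 1 and -0.32 without mouse 3, with a range of -0.32 to 0.70. The difference of responses of Top2a was -0.45 under the positive controls with a single floor and -0.045 without mouse 3, with a range of -0.045 to 0.33. The cause of these turns was not tested. Precision is limited by the 2 PBS-treated mice per genotype and, for the 4 genes at the floor there, by the lowest measurable value.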

Other observations

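Of the listed genes for growth signals and IL-4 signalling, 21 of 44 were measured and 18 tested. After IL-4c, 4 were called as higher and 8 as lower in Rα+/+ mice, where 13.9% and 32.4% of all genes were, and 2 and 8 in RαTd/Td mice, where 15.3% and 36.6% were. Csf1r, the receptor for the main macrophage growth factor, had log2 differences of -0.97 and -0.98 in Rα+/+ and RαTd/Td mice. For Il4ra, the receptor chain for IL-4, they were -0.89 and -0.87, and for Myc, a transcription factor of cell growth, -0.88 and -0.73. Birc3, which like Birc5 belongs to the inhibitor of apoptosis family, had -0.79 and -0.94. All 4 were called as lower with the deposited scaling, but their direction rests on it: under the positive controls the differences were 0.30 and 0.53 for Csf1r, 0.39 and 0.64 for Il4ra, 0.39 and 0.77 for Myc and 0.48 and 0.57 for Birc3, none of them called.

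Dusp2, a phosphatase that acts on MAP kinases, was at 99.6, 110 and 121 normalized counts in IL-4c-treated Rα+/+ mice and at the floor in the 8 others, and it was the only gene of the growth list called between genotypes after IL-4c.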
